A study of Homo sapiens with 8 samples.

Results

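The 46 genes described here encode the machinery that copies DNA in S phase, with the E2F factors and E cyclins that switch it on. They were taken by gene symbol from a list of such genes. All 46 were found among 63677 listed genes, and all 46 were among the 15646 genes expressed highly enough to be tested. By role they comprise 10 origin licensing genes, 8 helicase activation genes, 6 genes of the sliding clamp and its loader, 8 polymerase and primase genes, 5 lagging-strand and single-strand binding genes, 5 E2F factor and E cyclin genes, and 4 genes of chromatin and histone supply.

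RNA came from the Jurkat line, derived from a human T-cell acute lymphoblastic leukaemia and kept as an established culture, and every group, the control included, carried TAL1 joined to the FKBP12 degradation tag. Cells were held for 24 hours in dTAG-13 plus GSI (the combination), in GSI alone, in dTAG-13 alone, or in DMSO, the solvent control, and 2 libraries were sequenced per group. dTAG-13 is a degrader of proteins that bear the FKBP12 tag, and GSI commonly stands for gamma-secretase inhibitor, which stops NOTCH receptors from being cut into their active form. Doses are not in the labels, all groups are of a single cell line, and the labels leave unsaid if the 2 libraries of a group had separate cultures. The p-values therefore reflect the spread between these libraries alone, and that spread may be technical.

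Before a cell can replicate its DNA, the origin recognition complex, CDC6 and CDT1 load the ring of MCM2 to MCM7 onto origins in G1. Kinases then convert this ring into an active helicase with CDC45 and the GINS complex, and polymerases held by the PCNA clamp copy both strands. Many of these genes are transcribed at the G1 to S transition by E2F factors, which the retinoblastoma protein RB restrains and cyclin E with its kinase releases, and leukaemia lines such as Jurkat are cultured as cycling cells.

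Because E2F control is the textbook link between these genes, their promoters were searched for 4 spellings of the E2F motif, TTTCCCGC, TTTGGCGC, TTTCGCGC and TTTGCCGC, on both strands. Windows of 300 bases around the start site (RefSeq, GRCh38.p14) were held for 38 of the 46 genes. Of the 38, 20 (52.6%) had a match, against 1090 of 27305 genes with a window (3.99%). The 27305 were not limited to genes expressed here, whereas all 46 members were expressed. Windows were not held for MCM4, MCM5, GINS4, POLD3, RPA2, RPA3, E2F8 and CCNE2. The windows of 3 genes are printed below from 250 bases before the start to 30 after it, with matches in capitals. E2F2 was the member that passed the test in the most comparisons. MCM2 and MCM6 lay lower in the libraries with GSI but passed the test in no comparison. E2F2 is at chr1:23531204-23531483, minus strand, MCM2 at chr3:127598161-127598440, plus strand, and MCM6 at chr2:135876414-135876693, minus strand.
E2F2: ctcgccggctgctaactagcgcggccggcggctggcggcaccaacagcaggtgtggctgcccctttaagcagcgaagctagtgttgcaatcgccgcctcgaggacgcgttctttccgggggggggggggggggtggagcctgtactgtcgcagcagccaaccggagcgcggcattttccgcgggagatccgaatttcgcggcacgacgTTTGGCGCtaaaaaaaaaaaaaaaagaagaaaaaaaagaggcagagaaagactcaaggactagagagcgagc
MCM2: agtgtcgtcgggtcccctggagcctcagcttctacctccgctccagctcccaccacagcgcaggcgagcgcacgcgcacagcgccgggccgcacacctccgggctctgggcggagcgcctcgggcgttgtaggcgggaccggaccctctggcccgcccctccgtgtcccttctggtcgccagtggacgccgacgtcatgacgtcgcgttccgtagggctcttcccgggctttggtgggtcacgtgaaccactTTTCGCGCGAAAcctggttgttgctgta
MCM6: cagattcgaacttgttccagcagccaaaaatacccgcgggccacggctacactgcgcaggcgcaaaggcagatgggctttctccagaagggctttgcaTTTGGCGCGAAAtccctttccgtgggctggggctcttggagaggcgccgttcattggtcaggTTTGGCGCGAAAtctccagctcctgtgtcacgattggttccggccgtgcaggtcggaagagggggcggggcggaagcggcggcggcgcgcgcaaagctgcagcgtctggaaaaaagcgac
E2F2 had 1 match, MCM2 had 1 stretch in which matches on opposite strands overlap, and MCM6 had 2 such stretches. Matches describe the letters only. The median log2 fold change with GSI, defined below, was -0.002 for the 20 genes with a match and 0.010 for the other 18 with a window. Of other motifs, the MYC E-box CACGTG was in 5 of 38 windows (13.2%, against 8.77% of all), the RBPJ motif GTGGGAA in 3 (7.89%, against 7.62%), and the TAL1 E-box CAGATG in 5 (13.2%, against 17.5%). The motif spellings can overlap each other, and the absence of a match says only that these letters are not in the window.

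Across the 8 libraries, 17544319 to 22180009 counts were assigned to genes, and values are given as CPM, counts scaled to each library's effective size. TAL1, the gene whose protein dTAG-13 is directed at, had 197 and 199 CPM with the combination, 208 and 198 CPM with GSI, 145 and 147 CPM with dTAG-13, and 154 and 166 CPM with DMSO, but RNA does not check a drug that acts on the protein. ALDH1A2, a gene that TAL1 activates in this leukaemia, singled out after its values were seen, had 98.1 and 82.7 CPM with the combination, against 189.4 and 159 CPM with GSI, and 75.5 and 76.3 CPM with dTAG-13, against 139.8 and 129 CPM with DMSO. It fell with dTAG-13 averaged over GSI by 0.89 on the log2 scale (adjusted p = 0.000192). The NOTCH target DTX1 checked the GSI labels: it had 19.7 and 17.0 CPM with the combination and 18.4 and 18.9 CPM with GSI, against 99.5 and 104.5 CPM with dTAG-13 and 137.7 and 154.4 CPM with DMSO. MYC, another NOTCH target in this leukaemia, was at 200.2 and 225 CPM with the combination and 170.1 and 189.7 CPM with GSI, against 348 and 352 CPM with dTAG-13 and 349 and 340.1 CPM with DMSO. HES1, a further NOTCH target, was at 1.44 and 2.16 CPM with the combination and 2.39 and 3.28 CPM with GSI, against 9.40 and 9.51 CPM with dTAG-13 and 12.7 and 12.7 CPM with DMSO. T-lineage markers were present, with 9 of 10 past the filter and summed levels of 2480 to 2830 CPM in the 4 libraries with GSI and 2780 to 2950 CPM in the 4 without, although TRBC1 was at 0 in all. Markers of other cell types were near 0: the B-lineage list (0 of 6 past the filter) summed to 0.338 to 0.623 CPM with GSI and 0.42 to 0.681 CPM without it, the myeloid list (0 of 8; FCGR3A, S100A8 and MPO at 0 in all libraries) to 0.288 to 0.61 CPM with GSI and 0.363 to 0.578 CPM without it, and the epithelial and stromal list (2 of 8; EPCAM, KRT18, KRT19 and PECAM1 at 0 in all libraries) to 2.12 to 2.91 CPM with GSI and 1.82 to 4.1 CPM without it.

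The replication genes as a group stayed close to their DMSO levels under every treatment, while E2F2 rose with the combination. Summed over the 46 genes, expression was 6282 and 6730.1 CPM with the combination, 6364 and 6708 CPM with GSI, 6617 and 6651 CPM with dTAG-13, and 6585 and 6556 CPM with DMSO. The sums of the combination and of GSI straddled those of DMSO, and the 2 combination libraries differed more from each other than their mean differed from DMSO. In bulk RNA a change in the number of cells that express a gene and a change in RNA per cell cannot be told apart.

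**Figure D1:**
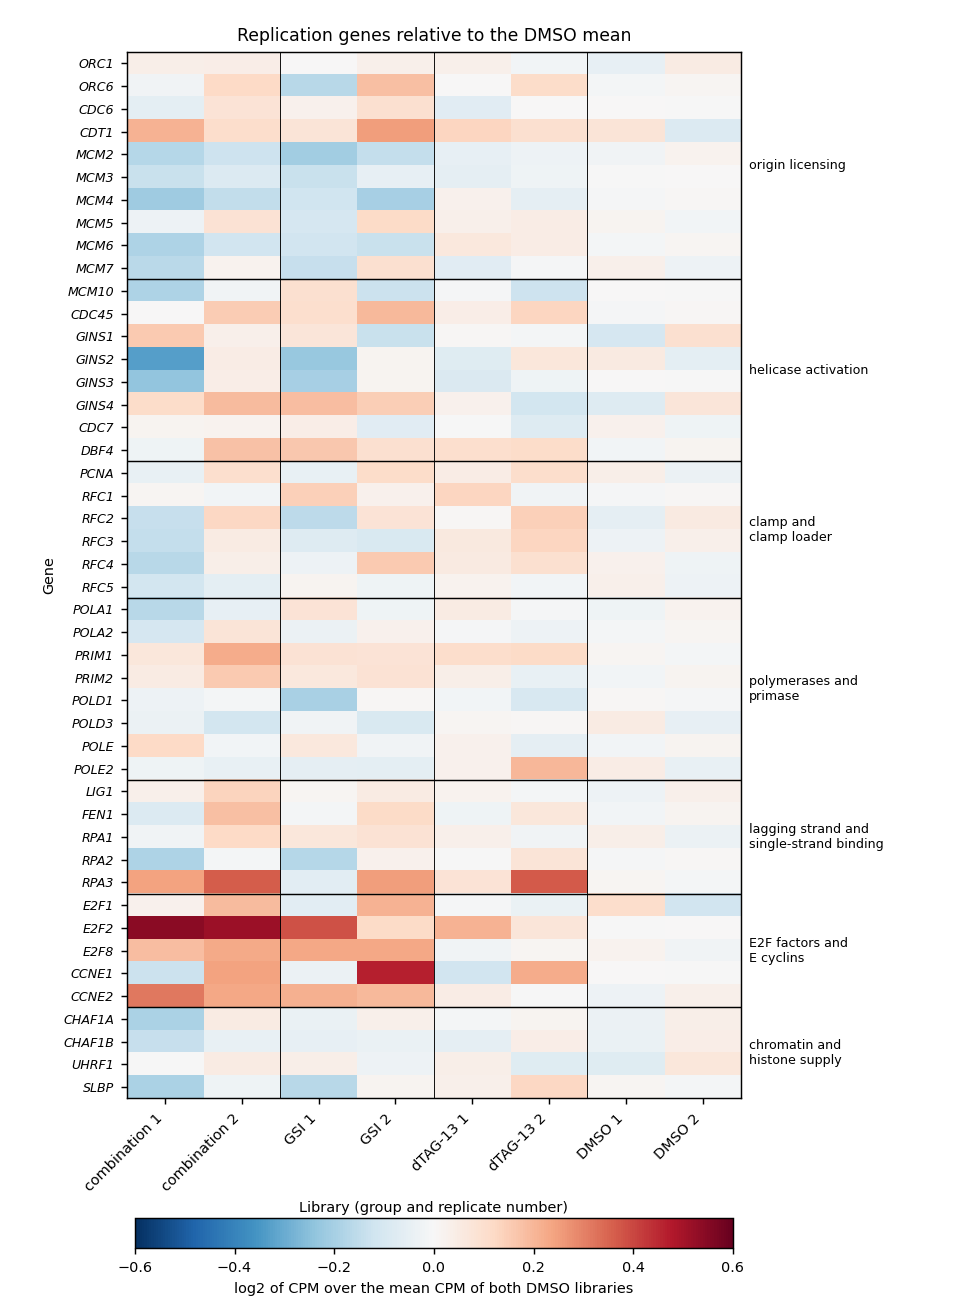
Deviation of each of the 46 genes in each of the 8 libraries from its mean over the DMSO libraries, in log2 CPM, with genes in rows ordered by role and libraries in columns by treatment. E2F2 stands out in the combination libraries, with 116 and 114 CPM against 79.4 and 79.6 CPM in DMSO, while most other rows deviate little.

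With dTAG-13 alone, 0 of the 46 genes passed edgeR's quasi-likelihood test at an adjusted p under 0.05, 0 had an unadjusted p under 0.05, and DESeq2 also called 0. Among all genes tested, 3 (0.0192%) passed, and 3.84% had an unadjusted p under 0.05. The members' median log2 fold change was 0.005, beside 0.006 over all genes, and the median size of change was 0.04, beside 0.09. Here and below, all genes include many of lower count, so sizes of change and shares are not matched for count. The median half-width of their intervals was 0.29 log2 units, against 0.19 for the members. The 95% confidence interval of every member lay within 0.5 log2 units of no change. The libraries of the 2 groups did not overlap for 17 of 46 members (12 higher, 5 lower), where 35.3% of all genes did not.

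GSI alone gave 0 called members by edgeR and 0 by DESeq2, where edgeR called 272 genes (1.74%) in all. At an unadjusted p under 0.05 there were 2 members higher and 1 lower (6.52%), against 14% of all genes. The members' median log2 fold change was 0.01, beside 0.007 over all genes, and the median size of change was 0.07, beside 0.14. Intervals lay within 0.5 log2 units for 45 of 46 members. The exception was CCNE1, a low-count member whose interval ran from -0.17 to 0.64. Libraries did not overlap for 18 members (11 higher, 7 lower), against 43.5% of all genes.

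The combination gave 1 called member, E2F2, which was higher than with DMSO, by edgeR and by DESeq2. Of all genes 205 (1.31%) were called, 85 of them higher (0.543%). At an unadjusted p under 0.05, against 12.4% of all genes, the members counted 4 higher and 1 lower (10.9%). Their median log2 fold change was 0.02, beside 0.002 over all genes, and intervals lay within 0.5 log2 units for 44 members, all but E2F2 and RPA3. Libraries did not overlap for 19 members (8 higher, 11 lower), against 42.1% of all genes.

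Each drug was also averaged over the presence and absence of the other, which sets 4 libraries against 4. GSI averaged in this way compares the combination and GSI libraries with the dTAG-13 and DMSO libraries, called with and without GSI from here on. It gave 2 called members (4.35% of the 46), both higher with GSI: E2F2 and E2F8. DESeq2 called 1 of them, E2F2. Over all genes 1086 (6.94%) were called, of which 529 were higher (3.38%), and the total was 342 without DMSO replicate 2 and 1524 without GSI replicate 2. Libraries with GSI lay wholly above those without it for 4 members (8.7%), against 7% of all genes, and wholly below for 3 (6.52%), against 8.22%, so such separation was about as common among the members as among all genes. At an unadjusted p under 0.05 the members counted 4 higher and 3 lower (15.2%), against 21.9% of all genes. Higher calls were about as common among the members (4.35%) as among all genes (3.38%). The members' median log2 fold change was 0.004, beside 0.007, and the median size of change was 0.06, beside 0.13. Of 46 intervals, 40 lay within 0.3 log2 units of no change.

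**Figure D2:**
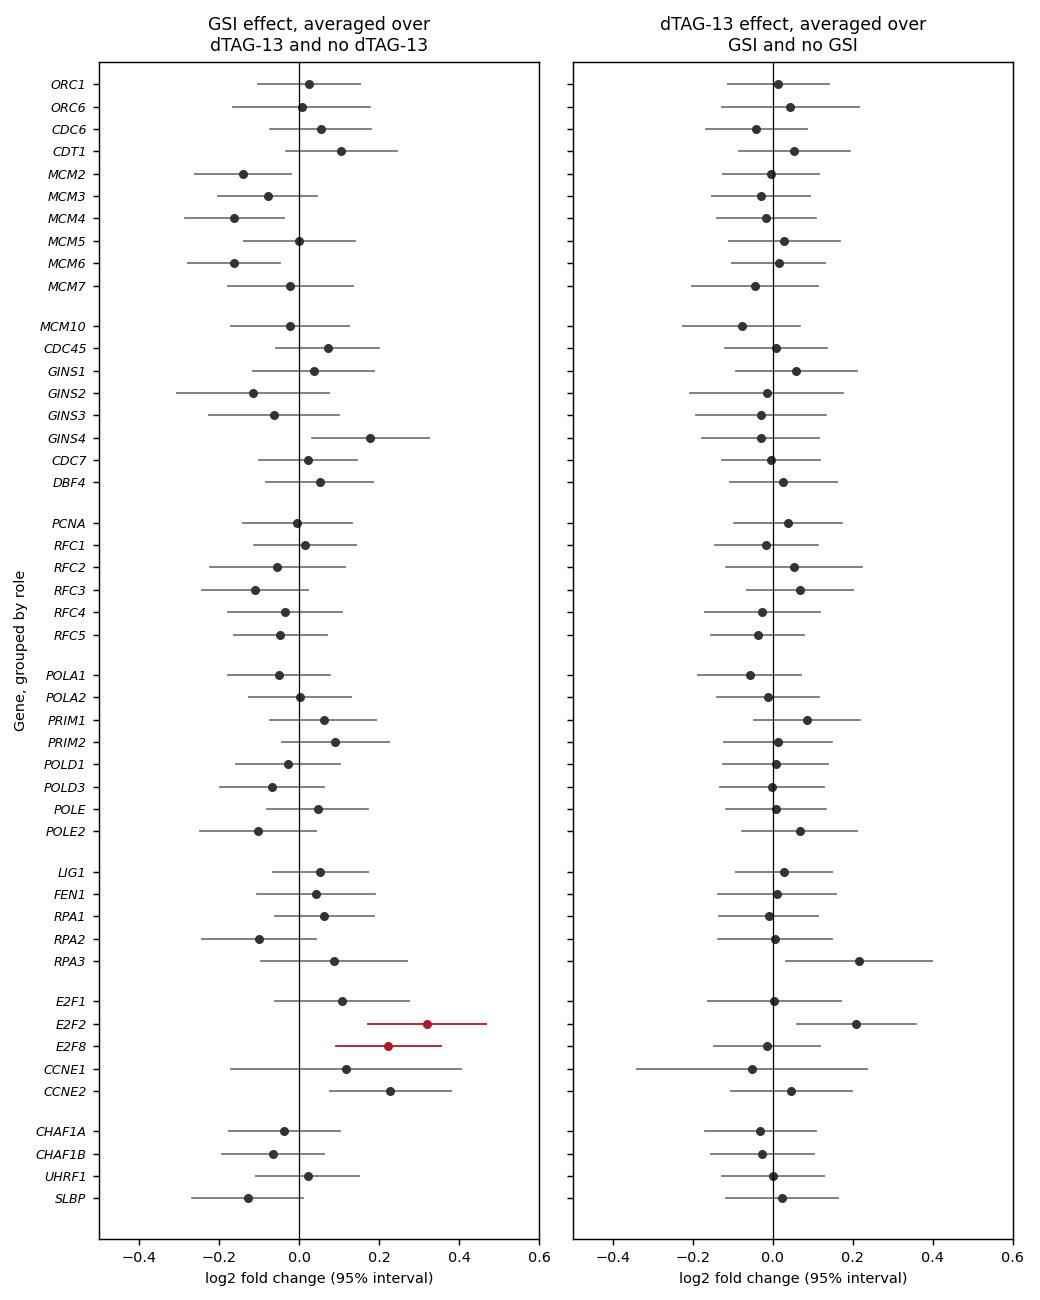
Log2 fold changes of the 46 genes for each drug averaged over the other, with 95% intervals and genes grouped by role. E2F2 (0.32) and E2F8 (0.22) are the only members past the threshold with GSI, and no member passed it with dTAG-13.

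Of the 5 E2F factor and E cyclin members, E2F2 and E2F8 were called higher with GSI averaged over dTAG-13 (40%, against 3.38% of all genes). At an unadjusted p under 0.05, 3 were higher (60%, against 21.9% of all genes in either direction). All 5 had positive log2 fold changes (median 0.22), as did 8072 of the 15646 genes tested. E2F2, an activating E2F that drives S-phase genes, had 116 and 114 CPM with the combination, 103.5 and 86.1 CPM with GSI, 92.0 and 83.6 CPM with dTAG-13, and 79.4 and 79.6 CPM with DMSO. It was highest in both combination libraries, above all 6 others, while GSI replicate 2 lay below dTAG-13 replicate 1, so the libraries with and without GSI overlapped. Its means were 115 ± 1.44 CPM with the combination, 94.8 ± 12.3 CPM with GSI, 87.8 ± 5.96 CPM with dTAG-13, and 79.5 ± 0.125 CPM with DMSO (SD, n = 2 each).

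Relative to DMSO, E2F2 rose 1.44-fold with the combination, a log2 difference of 0.53 ± 0.10 (SE) at an adjusted p = 0.019, with a 95% interval of 0.32 to 0.74. That call was lost without DMSO replicate 1 (adjusted p = 0.219), without DMSO replicate 2 (0.282) or without combination replicate 1 (0.0892), at log2 fold changes of 0.52 to 0.53. GSI alone gave a log2 difference of 0.25 ± 0.10 (SE) at an adjusted p = 0.253, which missed the threshold, and its log2 fold change was 0.12 without GSI replicate 1 and 0.38 without GSI replicate 2. dTAG-13 alone gave a log2 difference of 0.14 ± 0.10 (SE) at an adjusted p = 1, with 0.06 without dTAG-13 replicate 1 and 0.21 without dTAG-13 replicate 2. In the authors' deposited table the log2 fold change of E2F2 with the combination was 0.52 ± 0.11 (SE) at an adjusted p of 0.000289. Relative to dTAG-13, E2F2 with the combination gave a log2 difference of 0.39, short of the threshold (adjusted p = 0.0853) but past it when replicate number was fitted as a block (0.0203) or no filter on low counts was applied (0.00691). Leaving out 1 library gave adjusted p-values of 0.112 to 0.691. Relative to GSI the value was 0.27 (adjusted p = 0.991), with 0.41 without GSI replicate 1 and 0.15 without GSI replicate 2. Averaged over dTAG-13, GSI gave a log2 difference of 0.32 ± 0.07 (SE) at an adjusted p = 0.0157, lost without DMSO replicate 1 (0.0856), DMSO replicate 2 (0.095) or dTAG-13 replicate 2 (0.102).

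E2F8, an atypical E2F that represses E2F target genes, had 40.2 and 41.4 CPM with the combination, 41.5 and 41.6 CPM with GSI, 34.9 and 35.6 CPM with dTAG-13, and 35.8 and 34.9 CPM with DMSO. All 4 libraries with GSI lay above all 4 without it, and the values within each set were close. Averaged over dTAG-13, the rise with GSI was 1.17-fold, a log2 difference of 0.22 ± 0.06 (SE) at an adjusted p = 0.0469, with an interval of 0.09 to 0.35. It sat near the threshold: the adjusted p was 0.115 by DESeq2 and 0.0557 to 0.196 when any 1 of the 8 libraries was left out, with log2 fold changes of 0.21 to 0.23.

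CCNE2, one of the E cyclins that activate CDK2 at the start of S phase, had 25.5 and 24.1 CPM with the combination, 23.8 and 23.4 CPM with GSI, 21.1 and 20.5 CPM with dTAG-13, and 20.1 and 20.9 CPM with DMSO. The libraries with GSI were again all above those without it, but the averaged difference missed the threshold, with a log2 difference of 0.23 ± 0.07 (SE) at an adjusted p = 0.0718. CCNE1, the other E cyclin, had 8.75 and 11.3 CPM with the combination, 9.34 and 13.2 CPM with GSI, 8.85 and 11.2 CPM with dTAG-13, and 9.59 and 9.58 CPM with DMSO. Replicate 2 exceeded replicate 1 in every treated group, and the averaged log2 fold change was 0.12 (interval -0.17 to 0.41). E2F1, an activating E2F, had 82.2 and 92.2 CPM with the combination, 77.5 and 93.3 CPM with GSI, 80.3 and 78.6 CPM with dTAG-13, and 87.0 and 74.7 CPM with DMSO, and its libraries with and without GSI overlapped, with an averaged log2 fold change of 0.11 (interval -0.06 to 0.27).

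**Figure D3:**
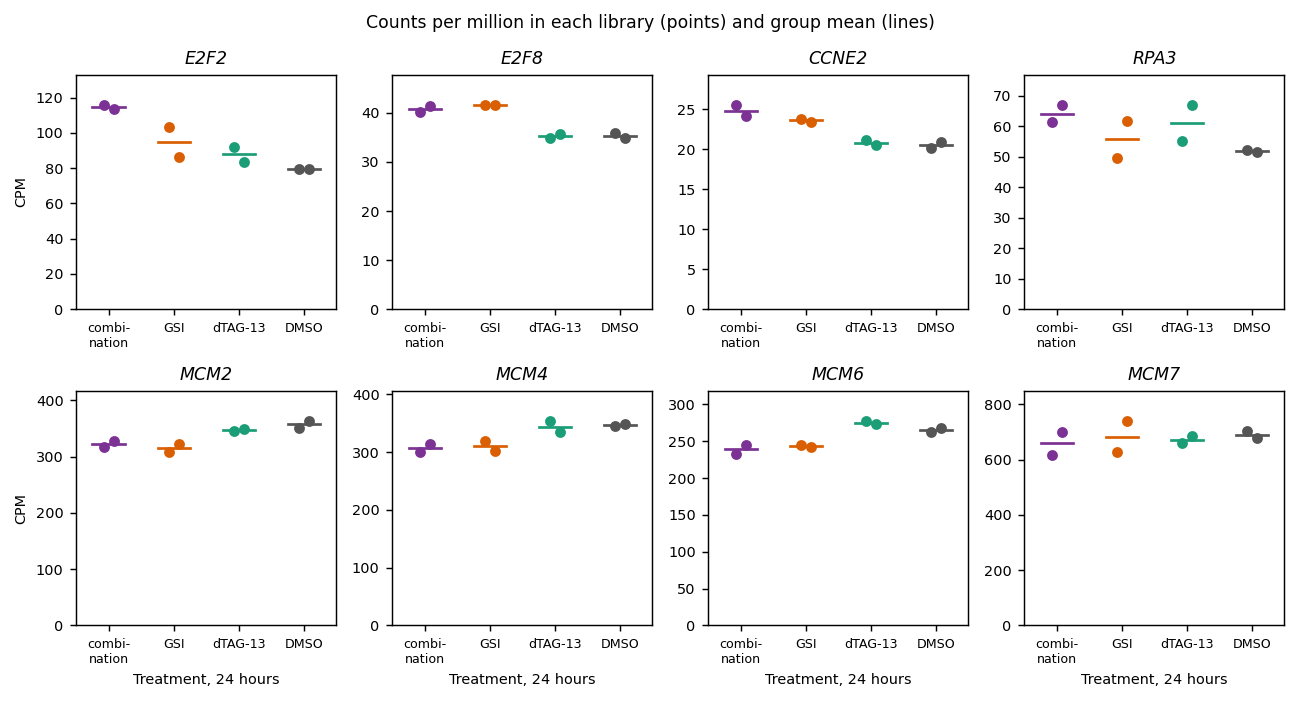
CPM of selected members in each library, in columns for the combination, GSI, dTAG-13 and DMSO, with points for single libraries and bars for the group mean. E2F8 and CCNE2 are above and MCM2, MCM4 and MCM6 are below in all 4 libraries with GSI relative to all 4 without it.

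Of the 10 licensing genes 0 were called with GSI averaged over dTAG-13, also 0 by DESeq2, and their median log2 fold change was -0.01. At an unadjusted p under 0.05, 3 were lower (30%, against 21.9% of all genes in either direction). The 3 lowest were MCM2, MCM4 and MCM6, subunits of the ring that unwinds DNA. MCM6 had 233 and 245 CPM with the combination, 244.5 and 242 CPM with GSI, 277 and 273 CPM with dTAG-13, and 263 and 267 CPM with DMSO. MCM4 had 299.5 and 313.5 CPM with the combination, 319.7 and 302 CPM with GSI, 353 and 335 CPM with dTAG-13, and 345 and 349 CPM with DMSO. MCM2 had 317 and 328 CPM with the combination, 308 and 323 CPM with GSI, 345 and 349 CPM with dTAG-13, and 351 and 362.5 CPM with DMSO. For each of these 3 subunits every library with GSI was below every library without it. The averaged log2 fold changes were -0.16 for MCM6 (SE 0.05, adjusted p = 0.0907), -0.16 for MCM4 (SE 0.06, adjusted p = 0.112) and -0.14 for MCM2 (SE 0.06, adjusted p = 0.153), so none passed the threshold. The other subunits of the same ring were nearer to no change, at -0.08 for MCM3, 0.00 for MCM5 and -0.02 for MCM7. Per kilobase of exon, RNA of MCM7 was the highest of the ring's subunits in DMSO (193 and 185.5 CPM per kb). MCM3 (131 and 132), MCM2 (97.0 and 100.1), MCM5 (89.9 and 88.0), MCM4 (79.4 and 80.3) and MCM6 (70.3 and 71.6) followed. Neighbours in this order did not overlap between replicates, which does not measure error in the exon lengths used.

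The loaders of the ring gave no call either. ORC1, the largest subunit of the origin recognition complex, had 53.4 and 53.6 CPM with the combination, 52.2 and 53.1 CPM with GSI, 53.2 and 51.5 CPM with dTAG-13, and 50.4 and 53.8 CPM with DMSO. CDC6, which joins that complex to load the ring, had 104 and 115 CPM with the combination, 110.4 and 116 CPM with GSI, 103 and 109 CPM with dTAG-13, and 109 and 108 CPM with DMSO. CDT1, which brings the ring to the origin, had 265 and 246 CPM with the combination, 241 and 272 CPM with GSI, 250.4 and 245 CPM with dTAG-13, and 241 and 216 CPM with DMSO. Libraries with and without GSI overlapped for each of the 3, and the averaged log2 fold changes were 0.02, 0.05 and 0.10, with intervals of -0.10 to 0.15, -0.07 to 0.18 and -0.03 to 0.24. For ORC6, a further origin recognition subunit, the value was 0.006.

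Among the 8 helicase activation genes 0 were called with GSI averaged over dTAG-13, also 0 by DESeq2, with a median log2 fold change of 0.03. At an unadjusted p under 0.05, 1 was higher (12.5%, against 21.9% of all genes in either direction). CDC45, which binds the MCM ring to form the active helicase, had 116 and 128.5 CPM with the combination, 124 and 133 CPM with GSI, 119 and 127 CPM with dTAG-13, and 115 and 116 CPM with DMSO. GINS2, a subunit of the GINS complex, had 59.8 and 77.5 CPM with the combination, 64.2 and 76.1 CPM with GSI, 71.5 and 78.9 CPM with dTAG-13, and 78.1 and 72.3 CPM with DMSO. CDC7, the kinase that phosphorylates the MCM ring, had 103 and 103 CPM with the combination, 104 and 97.1 CPM with GSI, 101.5 and 96.2 CPM with dTAG-13, and 103 and 99.8 CPM with DMSO. The GSI and combination values of GINS2 were split by replicate, replicate 1 being lowest and replicate 2 within the range of DMSO and dTAG-13. GINS4, another GINS subunit, singled out after its values were seen, had 40.7 and 43.1 CPM with the combination, 43.0 and 41.8 CPM with GSI, 38.4 and 35.01 CPM with dTAG-13, and 35.9 and 39.7 CPM with DMSO, and every library with GSI exceeded every library without it. That difference missed the threshold, with a log2 difference of 0.18 ± 0.07 (SE) at an adjusted p = 0.139. GINS3 had 53.6 and 64.8 CPM with the combination, 55.0 and 63.8 CPM with GSI, 59.5 and 61.9 CPM with dTAG-13, and 63.1 and 63.1 CPM with DMSO. MCM10, which aids helicase activation, had 101 and 113 CPM with the combination, 123 and 105 CPM with GSI, 114 and 105 CPM with dTAG-13, and 115 and 115 CPM with DMSO. With dTAG-13 alone both libraries lay below those of DMSO for GINS3 and MCM10, at log2 fold changes of -0.06 and -0.07, the lowest of the 46 but not past the threshold. For GINS1 and DBF4, the regulatory partner of CDC7, the averaged GSI values were 0.04 and 0.05.

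For the clamp and its loader 0 of 6 genes were called with GSI averaged over dTAG-13 (0 at an unadjusted p under 0.05, and 0 by DESeq2), with a median averaged GSI log2 fold change of -0.04. PCNA, the clamp that tethers polymerases to DNA, had 274 and 303 CPM with the combination, 274 and 305 CPM with GSI, 292 and 304 CPM with dTAG-13, and 289.5 and 275.5 CPM with DMSO. RFC3, a subunit of the complex that loads PCNA, had 82.1 and 93.7 CPM with the combination, 85.9 and 85.0 CPM with GSI, 94.3 and 99.1 CPM with dTAG-13, and 88.6 and 92.5 CPM with DMSO. The libraries overlapped for both, and the intervals with GSI were -0.14 to 0.13 for PCNA and -0.24 to 0.02 for RFC3. The remaining loader subunits RFC1, RFC2, RFC4 and RFC5 had averaged GSI values of 0.01, -0.06, -0.04 and -0.05.

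The 8 polymerase and primase genes also had 0 calls with GSI averaged over dTAG-13 (0 at an unadjusted p under 0.05, and 0 by DESeq2), and a median log2 fold change of -0.01. POLA1, the catalytic subunit of the polymerase that starts each strand, had 71.0 and 77.0 CPM with the combination, 84.4 and 78.5 CPM with GSI, 82.6 and 79.5 CPM with dTAG-13, and 78.5 and 81.1 CPM with DMSO. POLE, the catalytic subunit of the leading-strand polymerase, had 221 and 201 CPM with the combination, 213 and 201 CPM with GSI, 207 and 196 CPM with dTAG-13, and 202 and 206 CPM with DMSO. Libraries with and without GSI overlapped for both. PRIM2, the large primase subunit, singled out after its values were seen, had 43.7 and 47.2 CPM with the combination, 44.1 and 44.8 CPM with GSI, 43.3 and 41.0 CPM with dTAG-13, and 41.8 and 42.8 CPM with DMSO, with each library with GSI above each without it at a log2 fold change of only 0.09 (adjusted p = 0.438). The other 5 genes (POLA2, PRIM1, POLD1, POLD3 and POLE2) had averaged values between -0.10 and 0.06.

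Of the 5 lagging-strand and single-strand binding genes 0 were called in any of the 8 comparisons by edgeR or DESeq2. At an unadjusted p under 0.05 there was 1, RPA3. It was higher with the combination against DMSO and with dTAG-13 averaged over GSI, where 12.4% and 6.08% of all genes passed. RPA1, the large subunit of the complex that coats single-stranded DNA, had 231 and 255 CPM with the combination, 245.5 and 249 CPM with GSI, 239 and 231 CPM with dTAG-13, and 240 and 229 CPM with DMSO. LIG1, the ligase that joins Okazaki fragments, had 146 and 157 CPM with the combination, 144 and 148 CPM with GSI, 146 and 142 CPM with dTAG-13, and 140.4 and 146 CPM with DMSO. Both overlapped between libraries with and without GSI. RPA3, the small RPA subunit, had 61.4 and 66.8 CPM with the combination, 49.7 and 61.8 CPM with GSI, 55.0 and 66.9 CPM with dTAG-13, and 52.4 and 51.5 CPM with DMSO. It had the highest log2 fold change of the 46 genes with dTAG-13 alone, 0.23 (adjusted p = 1), and the second highest with the combination, 0.30 (adjusted p = 0.315), without a call, and its replicates differed widely in the GSI and dTAG-13 groups. FEN1, the flap nuclease, and RPA2 had averaged GSI values of 0.04 and -0.10.

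In the chromatin and histone group 0 of 4 genes were called with GSI averaged over dTAG-13 (0 at an unadjusted p under 0.05, and 0 by DESeq2). SLBP, which binds the stem-loop of replication-dependent histone mRNAs, had 156 and 175 CPM with the combination, 159 and 181 CPM with GSI, 182 and 195 CPM with dTAG-13, and 180.2 and 177 CPM with DMSO. CHAF1A, a subunit of the factor that deposits histones behind the fork, had 105 and 124 CPM with the combination, 117 and 123 CPM with GSI, 119 and 122 CPM with dTAG-13, and 117 and 123 CPM with DMSO. UHRF1, which guides maintenance methylation of new DNA, had 143 and 149 CPM with the combination, 147 and 141 CPM with GSI, 147.5 and 137 CPM with dTAG-13, and 137 and 151 CPM with DMSO. All 3 overlapped between libraries with and without GSI, with averaged log2 fold changes of -0.13, -0.04 and 0.02, and that of CHAF1B, the partner of CHAF1A, was -0.07.

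The effect of dTAG-13 on these genes was also small when averaged over GSI. By edgeR 0 of 46 members were called, and 0 by DESeq2, against 78 genes (0.499%) in all by edgeR. At an unadjusted p under 0.05 there were 2 members, both higher (4.35%), against 6.08% of all genes. For 0 members did the 4 libraries with dTAG-13 lie wholly above or wholly below the 4 without it, where 1.07% of all genes lay above and 1.55% below. The median log2 fold change was 0.005, beside 0.003 over all genes, and 43 of 46 intervals were within 0.3 log2 units. The 2 highest were RPA3 (0.22, interval 0.03 to 0.40, adjusted p = 0.69) and E2F2 (0.21, interval 0.06 to 0.36, adjusted p = 0.499). The lowest were MCM10 (-0.08) and POLA1 (-0.06).

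Set against dTAG-13, the combination had 3 members higher and 1 lower at an unadjusted p under 0.05 (8.7%, against 13% of all genes). DESeq2 called 0 members, and edgeR also called 0, with 189 genes (1.21%) in all. That 0 became 1, E2F2, with the replicate block and also with no filter on low counts. Against GSI the combination gave 0 called members by DESeq2 and 0 by edgeR, with 9 genes (0.0575%) in all by edgeR. At an unadjusted p under 0.05 there was 1 member, higher (2.17%), against 4.14% of all genes. Whether the combination departed from the added log2 effects of its parts was tested as well, and a departure was called for 0 members and 0 genes in all (0%) by edgeR, and by DESeq2 also 0 and 0. At an unadjusted p under 0.05 there were 0 members and 260 genes (1.66%). The departure of E2F2 was 0.13 with an interval of -0.17 to 0.43 (0.27 without GSI replicate 1 and 0.006 without GSI replicate 2), so departures of that width in either direction could not be told from none. The members' median departure was -0.02, beside -0.007 over all genes.

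Differences between replicates of the replication genes were uneven between groups. All genes, set beside them, include many of lower count. The median size of the log2 difference between both libraries of a group was 0.13 over the members with the combination (0.18 over all genes), 0.09 with GSI (0.18), 0.07 with dTAG-13 (0.13) and 0.04 with DMSO (0.12). With the combination 38 of 46 members were higher in replicate 2, GINS2 by the most (0.37), whereas the counts were 28 with GSI, 24 with dTAG-13 and 25 with DMSO. In replicate 2 of all 3 treated groups 20 members (43.5%) were higher, against 23.9% of all genes, and 6 (13%) were lower, against 23%. MCM5, MCM7, PCNA and CDC45 were among the 20, and E2F2, CCNE2 and POLE among the 6.

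**Figure D4:**
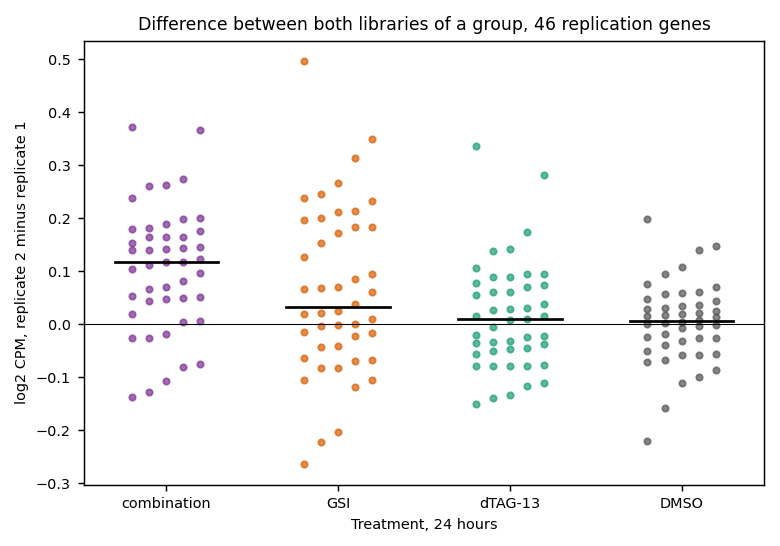
Log2 CPM difference between replicate 2 and replicate 1 of each group for the 46 genes, each point a gene and each bar the median. The combination has 38 of 46 genes above 0, and DMSO has the narrowest spread.

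Other genes of the cell cycle were read from lists that hold none of the 46. With GSI averaged over dTAG-13, 6 of 20 mitosis genes rose (30%) and 0 fell, with a median log2 fold change of 0.17, where 6.94% of all genes were called and 3.38% rose. They include CENPE, a kinetochore motor (90.3 CPM with GSI and 71.1 CPM without it; 0.34, adjusted p = 0.0288), NUSAP1, a spindle microtubule protein (282 CPM with GSI and 232.5 CPM without it; 0.28, adjusted p = 0.00971), and TOP2A, the topoisomerase that untangles sister chromatids (476 CPM with GSI and 393.5 CPM without it; 0.28, adjusted p = 0.0237), with CENPF, TTK and KIF11 as the other 3. By edgeR, 0 of the 20 were called with GSI alone, 1 with the combination against DMSO and 0 with the combination against dTAG-13. The shares of all genes called were 1.74%, 1.31% and 1.21%. DESeq2 called 1, 2 and 0, all higher. At an unadjusted p under 0.05, 13 of the 20 were higher and 0 lower with GSI alone (65%, against 14% of all genes). For the combination 10 were higher against DMSO (50%, against 12.4%) and 5 against dTAG-13 (25%, against 13%), with 0 lower in either. Calls in these lists were not examined with a library left out. Of 24 regulators of RB, E2F and the G1 to S step, 5 rose and 1 fell (25% called, against the same 6.94%), with a median of 0.06. Inhibitors of cyclin-dependent kinases were among those that rose: CDKN2D (60.6 CPM with GSI and 34.98 CPM without it; 0.79, adjusted p = 9.86e-05), CDKN2C (0.36, adjusted p = 0.00506) and CDKN1B (0.27, adjusted p = 0.022). CCND3, a D cyclin, and TFDP2, a partner of E2F factors, rose by 0.24 and 0.23. CCND3 had 476 and 503 CPM with the combination and 502 and 539 CPM with GSI, against 395 and 402 CPM with dTAG-13 and 471 and 440 CPM with DMSO. TFDP2 had 235 and 212 CPM with the combination. Its libraries with GSI alone (187 and 173 CPM) overlapped those with dTAG-13 alone (184 and 185 CPM), and DMSO had 162 and 156 CPM. E2F5, a repressive E2F, fell (25.2 CPM with GSI and 36.0 CPM without it, log2 fold change -0.52, adjusted p = 0.0017). E2F3, E2F4, E2F6 and E2F7, the other E2F factors of that list, were not called, and their libraries with and without GSI overlapped.

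In deoxynucleotide synthesis 1 of 11 tested genes rose and 1 fell (18.2% called, against 6.94%), with a median of 0.04: DCK, a salvage kinase (0.30, adjusted p = 0.0134), and CTPS1, which makes CTP (-0.27, adjusted p = 0.0285). Among 24 other fork and origin genes 0 were called by edgeR and 0 by DESeq2, with a median of 0.04. At an unadjusted p under 0.05, 2 were higher and 2 lower (16.7%, against 21.9% of all genes). With dTAG-13, alone or averaged, edgeR called 0 genes of these 4 lists. At an unadjusted p under 0.05, 2 were higher and 1 lower with dTAG-13 alone, and 3 higher and 2 lower averaged. All were RB and E2F regulators, of which DESeq2 called 0 and 1. Their shares of that list were 12.5% and 20.8%, against 3.84% and 6.08% of all genes. Against DMSO the combination called 3 of 24 regulators by edgeR (12.5%), all higher: CDKN2C (0.51), CDKN2D (0.74) and TFDP2 (0.49). Of 20 mitosis genes it called 1 (5%), TTK (0.41), also higher. Over all genes 1.31% were called and 0.543% were called higher. GSI alone called 2 regulators higher and 1 lower (12.5%, against 1.74% of all genes).

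**Figure D5:**
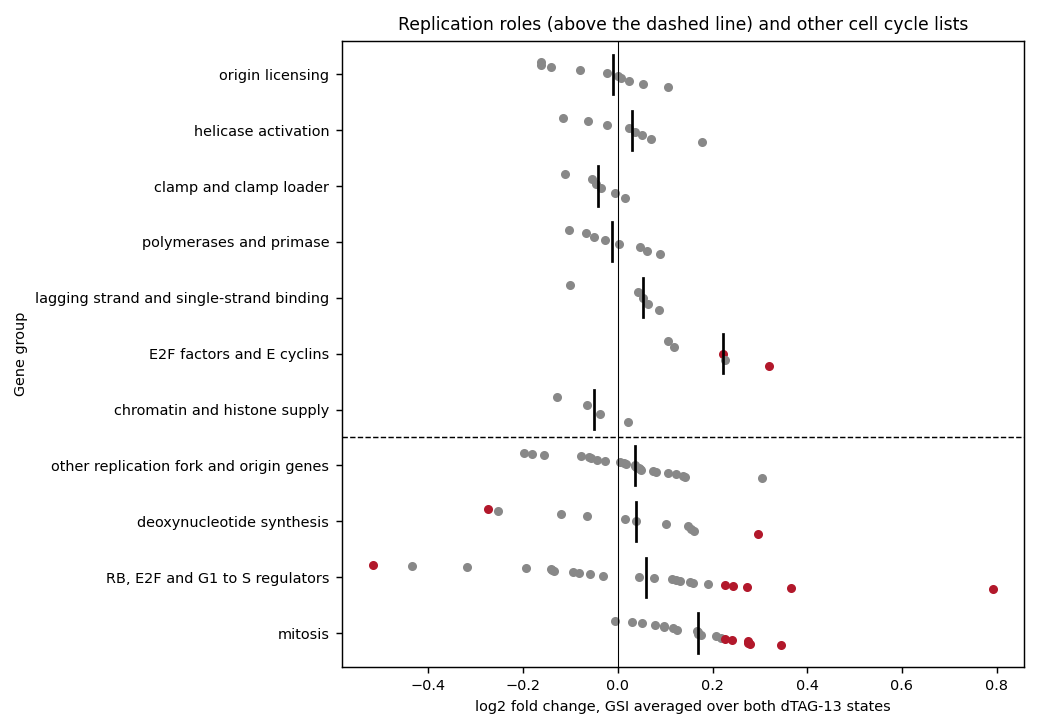
Log2 fold changes with GSI averaged over dTAG-13 for the members by role and for the other cell cycle lists, each point a gene and each bar the median. The member group of E2F1, E2F2, E2F8, CCNE1 and CCNE2 (median 0.22) and the mitosis list (0.17) have the highest medians. Those of the other groups lie between -0.05 (chromatin and histone supply) and 0.06 (RB and E2F regulators), with the licensing genes at -0.01. Other E2F factors are in the list of RB and E2F regulators, where E2F5 fell.

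In the authors' deposited tables of each treatment against DMSO, 1 member was called, E2F2 with the combination, among 193 genes in all. No member was called there with GSI (243 genes) or with dTAG-13 (32 genes).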

How the data were processed

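Strand-specific paired-end libraries were sequenced from total RNA of 8 samples, 2 for each of 4 treatments. The submitters' processing notes name hg19, DESeq2 1.12.4, STAR 2.5.2a and featureCounts as what the authors used. How strand was set in counting, and which annotation was counted, is not given in the sources used here. The deposited table holds raw counts per gene and library. In the authors' 3 deposited DESeq2 tables the log2 fold changes are against DMSO, the score is the fold change over its error, and each p-value is theirs.

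Genes were kept by filterByExpr (15646 of 63677, holding at least 99.891% of each library's counts), scaled by TMM and fitted in 1 robust quasi-likelihood model of the 4 groups with edgeR 4.0.16 in R 4.3.3, with 4 residual degrees of freedom. Tests were 2-sided F-tests for 8 comparisons, with Benjamini-Hochberg adjustment over all genes and a threshold of 0.05. SE is the Wald error of the fit, and 95% intervals are per gene, not adjusted. CPM per kb used the exon union of coding transcripts in GENCODE annotation of another build, so no coordinates were joined. The symbols RFC2 and RBL1 each have 2 IDs, of which the other held 0 and 35 counts.

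Values in every library are given for members past the threshold, the 2 highest and 2 lowest in each comparison with DMSO and each averaged comparison (mean of at least 5 CPM), and 19 members chosen by role. Of the other lists, called genes are named. The members and lists were chosen with earlier results of these data known. Alternatives were DESeq2 size factors, no filter, DESeq2 1.42.0 with its Wald test, a replicate block, the compared libraries alone and leaving out each library.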

Additional observations from a re-analysis of the deposited data

How the results depend on the processing

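Counts of members called moved only for higher calls. With GSI averaged over dTAG-13 (2 by edgeR) there was 1 with DESeq2 size factors, 1 with no filter and 1 by DESeq2's Wald test, E2F8 being lost at adjusted p = 0.0505, 0.0662 and 0.115, and leaving out 1 library gave 0 to 1. With the combination against DMSO (1) it gave 0 to 1. The combination against dTAG-13 (0) called 1 with no filter and 1 with the replicate block, E2F2 each time (adjusted p = 0.00691 and 0.0203). The cause was not tested.

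Of 2132 fold changes of named members under an alternative, 2112 kept their call or their lack of one, 17 lost a call (all E2F2 or E2F8), 3 gained one (all E2F2) and 0 reversed with a call, and 210 values without a call changed sign. The labels do not say what a replicate number marks. Deviations of same-numbered libraries correlated across all genes at 0.15, 0.14 and 0.21 between treated groups but at -0.03, -0.11 and -0.04 with DMSO, and across the 46 members at 0.72, 0.55 and 0.58 but at -0.15, -0.33 and -0.08, so the treated groups deviated together by number and DMSO did not. With the replicate block GSI averaged called 2 members. With the DMSO numbers crossed, a choice made after seeing the data, GSI against DMSO called 1 member and 1581 genes.

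All genes called ran, without a filter, to 51 (dTAG-13 against DMSO), 660 (GSI), 532 (combination), 563 (combination against dTAG-13), 59 (against GSI), 1815 (GSI averaged) and 165 (dTAG-13 averaged), and with the block to 23, 559, 413, 476, 34, 1822 and 135. DESeq2 gave 21 for dTAG-13 and 20 for the combination against GSI. The compared libraries alone gave 71, and 96 and 3 for the combination against dTAG-13 and GSI. Leaving out 1 library mostly lowered these counts, to 0 to 2 for dTAG-13 (3 with all libraries), 32 to 232 for GSI (272), 38 to 258 for the combination (205), 43 to 264 against dTAG-13 (189), 6 to 7 against GSI (9), 342 to 1524 for GSI averaged (1086) and 14 to 78 for dTAG-13 averaged (78). Without DMSO replicate 1 the counts were 52 for GSI, 54 for the combination, 400 for GSI averaged and 14 for dTAG-13 averaged, and without DMSO replicate 2 they were 32, 38, 342 and 17. The departure from added effects was called for 1 gene without DMSO replicate 1. With 2 libraries a group, members' intervals had a median half-width of 0.19 log2 units against DMSO.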
